A study of Mus musculus with 71 samples.

Results

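The comparison described here set mice on a high-fat and sugar diet (HFS) under time-restricted feeding (TRF) against mice on the same diet fed ad lib, both culled 1 h after object recognition memory training (ORM+1 h). It held 12 mice, 6 per schedule, of 71 mice in the series, and every gene with at least 10 counts in total over all mice entered, which gave 30141 genes of 57010. All were wild-type male C57BL/6J mice, and each library came from the hippocampus of 1 mouse, labelled zt3 (3 h after lights on). The HFS diet began at weaning in both groups. The HFS ad lib mice had food at all hours throughout, whereas the HFS TRF mice were fed ad lib first. Over the last weeks the HFS TRF mice had food only from shortly before lights off to shortly after lights on. That window closed before zt3, so access to food at sampling also differed between the schedules. Home cage mice of both schedules, culled untrained at zt3 (HC zt3, 6 and 6), gave the starting levels. The paper places training over a span of hours around zt3, with culling 1 h after it. The trained mice were thus not all culled at the hour of the home cage mice. The labels give zt3 for every trained mouse, so they do not show whether the trained groups were culled at matched hours. The part of that hour was not tested, either between the trained groups or in contrasts with the home cage. The labels do not say which mice shared a cage, so an effect of cage and one of feeding schedule cannot be told apart. The comparison asked whether the levels reached shortly after training differed between the feeding schedules.

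The libraries were made by pS6-TRAP, in which ribosomes carrying phosphorylated ribosomal protein S6 are pulled down and the mRNA bound to them is sequenced. S6 is phosphorylated in cells with recent activity or growth signalling, so the pull-down enriches mRNA under translation in such cells. Learning is known to induce within an hour the immediate early genes, among them transcription factors of the Fos, Egr and Nr4a families and the synaptic protein gene Arc. Time-restricted feeding is known to realign the liver clock with meals. Levels are given as CPM, the counts of a gene scaled to its library's effective total, and differences as log2 of HFS TRF over HFS ad lib. In a pull-down from whole tissue, fewer cells of a type and less RNA per cell cannot be told apart. A smaller share of ribosomes with phosphorylated S6 in that type cannot be told apart from either.

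Total counts were 47333105 to 59738764 in HFS TRF and 49188472 to 58659920 in HFS ad lib. Neuronal markers stood at a mean log2 CPM of 9.73 to 9.81 in HFS TRF and 9.67 to 9.86 in HFS ad lib and no marker of any cell type list was at 0 in every mouse of either group. The largest variation among the 12 mice lay within both groups. The first principal component, 51.7% of the variance over 10062 genes, set choroid plexus genes such as Ttr, Kcne2 and Folr1 against astrocyte genes such as Tril, Slc1a3 and Aqp4. Its scores ran from -14.6 to 18.5 in HFS TRF and from -15.7 to 24.3 in HFS ad lib. The 10 choroid plexus markers summed to 139 to 6835 CPM in HFS TRF and 146 to 9734 CPM in HFS ad lib, highest in HFS TRF replicate 3 and HFS ad lib replicates 3 and 5. Markers of the thalamus, which lies under the hippocampus, were highest in HFS TRF replicate 3 at 562 CPM, against 214 to 341 CPM in the other trained HFS mice. Some results on neighbouring tissue are given below also without HFS TRF replicate 3 or HFS ad lib replicate 3. The median of astrocytic glutamate genes is given also without HFS ad lib replicate 3 and without HFS ad lib replicate 2.

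No gene was called between HFS TRF and HFS ad lib at ORM+1 h. Of 30141 genes, 0 had an adjusted p under 0.05 (0% called) by edgeR's quasi-likelihood test, and the smallest adjusted p was 0.763. At an unadjusted p under 0.05 there were 1971 genes, or 6.54% of those tested, 968 higher and 1003 lower in HFS TRF, and 0 genes were called by DESeq2, which had 987 genes at an unadjusted p under 0.05. The values of all 6 HFS TRF mice lay above or below all 6 HFS ad lib mice for 83 genes (0.275%), 41 above and 42 below. The precision behind this can be read from the 95% intervals of the differences. Among 14699 genes with a mean of at least 1 CPM, the median distance from the estimate to either end of its interval was 0.21 on the log2 scale. For 83.0% of them the interval lay within 1.5-fold in both directions, and for 95.9% within 2-fold. The spread itself was a little narrower in HFS TRF, with a median SD of log2 CPM of 0.13 against 0.16 in HFS ad lib, and 68.8% of these genes had the larger SD in HFS ad lib. In the home cage the median SDs were 0.14 and 0.16.

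**Figure D1:**
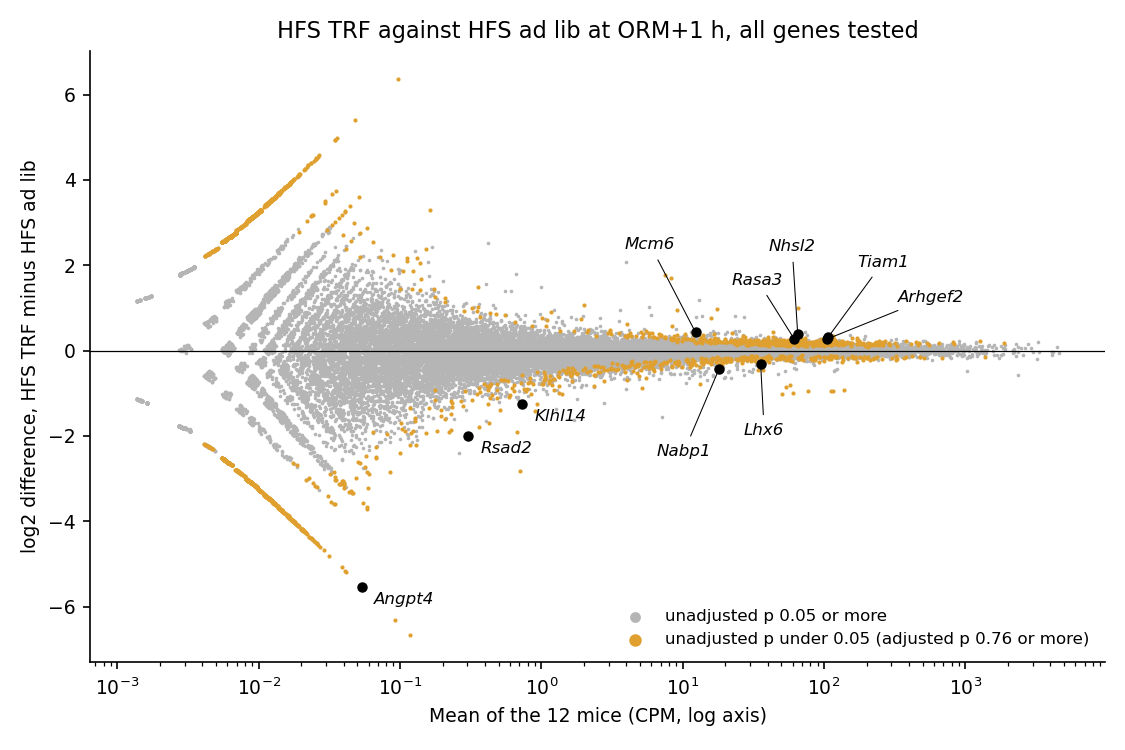
Log2 of the HFS TRF level over the HFS ad lib level at ORM+1 h (vertical axis) against the mean level over the 12 mice (CPM, log axis), 1 point per gene, with the 10 protein-coding genes of smallest p labelled. Differences narrowed around 0 as the level rose, and orange points (unadjusted p under 0.05) lay on both sides, with an adjusted p of 0.763 or more for every gene.

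The 5 protein-coding genes with the smallest p among those higher in HFS TRF were Rasa3, Nhsl2, Tiam1, Arhgef2 and Mcm6. Rasa3, a GTPase-activating protein (chr8:13616935-13727663, minus strand, GRCm39), stood at 59.2 to 74.4 CPM (median 66.4) in HFS TRF and 48.5 to 65.6 CPM (median 52.3) in HFS ad lib. The log2 difference was 0.28 (SE 0.07, edgeR adjusted p = 0.763). The lowest HFS TRF mouse lay below 2 HFS ad lib mice, so the groups overlapped.

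Tiam1 (chr16:89583994-89941086, minus strand) and Arhgef2 (chr3:88513273-88556837, plus strand) encode exchange factors that activate small GTPases. Tiam1 was at 111 to 127 CPM (median 115) in HFS TRF and 86.1 to 112 CPM (median 93.8) in HFS ad lib, a log2 difference of 0.31 (SE 0.08). Arhgef2 was at 106 to 118 CPM (median 115) in HFS TRF and 83.9 to 114 CPM (median 90.5) in HFS ad lib, a log2 difference of 0.27 (SE 0.07). For both genes 1 HFS ad lib mouse reached the HFS TRF range, and in the home cage the differences were -0.02 for Tiam1 and 0.04 for Arhgef2. Tiam1 fell in HFS ad lib after training by 0.31 on the log2 scale (edgeR adjusted p = 0.039), while in HFS TRF its training difference was 0.03 (adjusted p = 0.99). The difference between these training responses was 0.33 (adjusted p = 0.75) and was not called.

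The other 2 were Nhsl2 and Mcm6. Nhsl2 (chrX:100892946-101135661, plus strand), of the Nance-Horan family of actin regulators, was at 63.0 to 86.1 CPM (median 73.9) in HFS TRF and 47.7 to 64.8 CPM (median 58.0) in HFS ad lib, a log2 difference of 0.38 (SE 0.10). Mcm6 (chr1:128259311-128287516, minus strand), a subunit of the replicative helicase, was at 11.2 to 16.7 CPM (median 14.3) against 8.27 to 13.4 CPM (median 10.5), a log2 difference of 0.43 (SE 0.12). Both had overlapping groups and an adjusted p of 0.763.

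The 5 genes with the smallest p among those lower in HFS TRF were Lhx6, Rsad2, Angpt4, Nabp1 and Klhl14. Lhx6 (chr2:35971964-35995601, minus strand), the transcription factor of parvalbumin and somatostatin interneurons, was at 28.8 to 35.1 CPM (median 31.2) in HFS TRF and 33.6 to 47.3 CPM (median 38.8) in HFS ad lib. The log2 difference was -0.32 (SE 0.08, edgeR adjusted p = 0.763), and the ranges met only at their edges. Nabp1 (chr1:51505021-51517584, minus strand), a single-stranded DNA binding protein, was at 13.5 to 16.3 CPM (median 15.8) against 15.3 to 26.4 CPM (median 20.4), a log2 difference of -0.42 (SE 0.12).

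The remaining 3 were close to the limit of detection. Rsad2 (chr12:26492745-26506451, minus strand), an interferon-induced antiviral enzyme, had 0 to 10 counts (median 8) per HFS TRF mouse and 12 to 64 counts (median 23) per HFS ad lib mouse. Angpt4 (chr2:151753127-151787257, plus strand), an angiopoietin, had 0 counts in all 6 HFS TRF mice and 0 to 12 counts (median 4) in HFS ad lib, where 1 mouse was at 0. Klhl14 (chr18:21683434-21787775, minus strand), of the kelch-like family, had 10 to 41 counts (median 23) against 36 to 90 counts (median 47). Low counts were mostly even numbers, 78.7% of those from 1 to 20, so a sequenced pair entered most often as 2 counts and such genes rest on fewer molecules than their counts show.

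**Figure D2:**
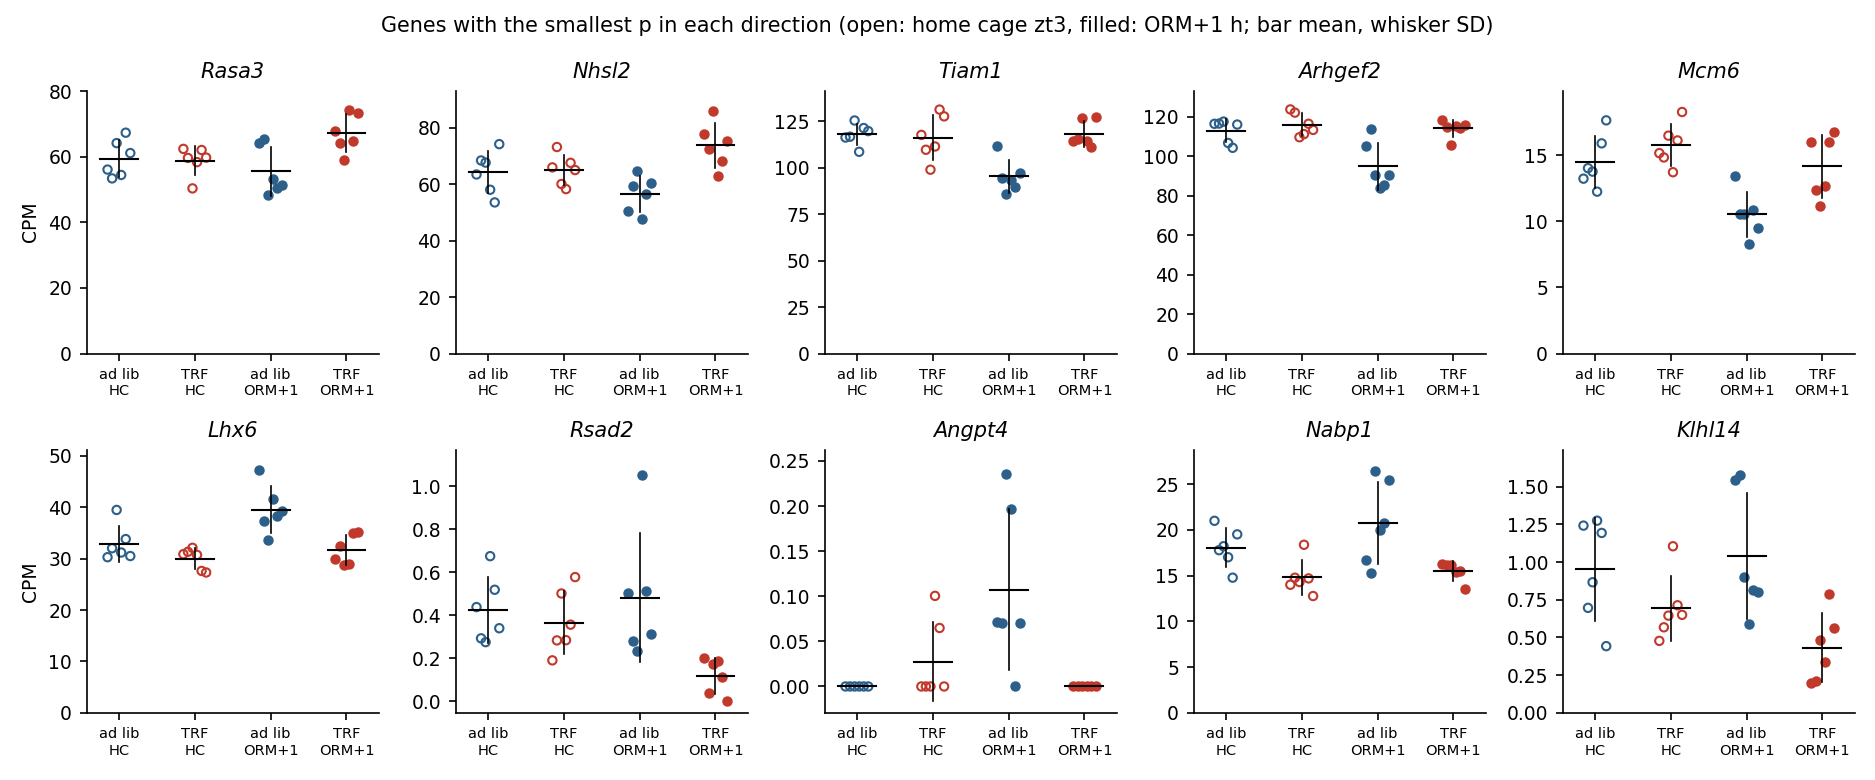
Level (CPM, vertical axis from 0) of the 5 protein-coding genes of smallest p in each direction, 1 point per mouse, in the home cage at zt3 (open) and at ORM+1 h (filled), blue for HFS ad lib and red for HFS TRF, with mean and SD. The trained groups overlap for each gene but Rsad2, whose 12 trained mice had 0 to 64 counts.

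Immediate early genes did not differ detectably between the schedules, and their intervals bound what could have been missed. Of 40 genes on this list, 0 passed the test in either direction, and 0 had an unadjusted p under 0.05, where 6.54% of all genes did. The median difference was 0.03 on the log2 scale, beside -0.0035 over all genes tested. The members ran from -0.23 to 0.22, with 25 above 0 and 15 below. The 95% interval lay within 1.5-fold for 31 of the 40 and within 2-fold for all 40. That the list responded to training can be seen within each schedule. There 36 of 40 were called higher in HFS TRF (2.24% of all genes) and 33 of 40 in HFS ad lib (0.74%).

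The next 5 genes were chosen for their role after their values were seen. Fos, the prototype of the class, stood at 58.8 to 111 CPM (median 68.6) in HFS TRF and 48.9 to 87.8 CPM (median 78.8) in HFS ad lib. The difference was 0.08 (SE 0.31, 95% interval -0.53 to 0.70). Its home cage levels reached 16.2 CPM (median 10.9) and 29.4 CPM (median 9.94), below every trained mouse of either schedule. Egr4, a zinc finger factor, was at 120 to 177 CPM (median 139) against 112 to 164 CPM (median 141), a difference of 0.01 (SE 0.15, 95% interval -0.29 to 0.31). Arc, which controls removal of AMPA receptors from synapses, was at 418 to 761 CPM (median 517) against 353 to 621 CPM (median 480), a difference of 0.22 (SE 0.19). The mice of both schedules were intermixed for all 3 genes.

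Nr4a1, an orphan nuclear receptor, was at 188 to 269 CPM (median 208) in HFS TRF and 141 to 252 CPM (median 189) in HFS ad lib, a difference of 0.16 (SE 0.21). Npas4, the activity-dependent factor that regulates inhibitory synapses, was at 18.6 to 46.5 CPM (median 22.7) against 12.7 to 31.1 CPM (median 27.4), a difference of 0.19 (SE 0.30). The 2 members with the smallest p were feedback inhibitors of MAP kinase signalling and neither passed the test. Dusp6 had a difference of 0.16 (SE 0.12, adjusted p = 0.914) and Spred1 one of -0.14 (SE 0.11, adjusted p = 0.948), which was -0.04 without HFS ad lib replicate 6. NC ad lib mice, on normal chow and trained alike, had median levels of 94.0 CPM for Fos, 165 CPM for Egr4, 511 CPM for Arc and 227 CPM for Nr4a1.

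The mean log2 CPM over the 40 genes, taken mouse by mouse, overlapped between the schedules almost completely. It ran from 5.54 to 5.99 (median 5.70) in HFS TRF and from 5.53 to 5.84 (median 5.72) in HFS ad lib at ORM+1 h, against 4.44 to 4.61 and 4.46 to 4.93 in the home cage. Leaving out 1 mouse at a time moved the list's median difference between -0.03 (without HFS TRF replicate 4) and 0.06.

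**Figure D3:**
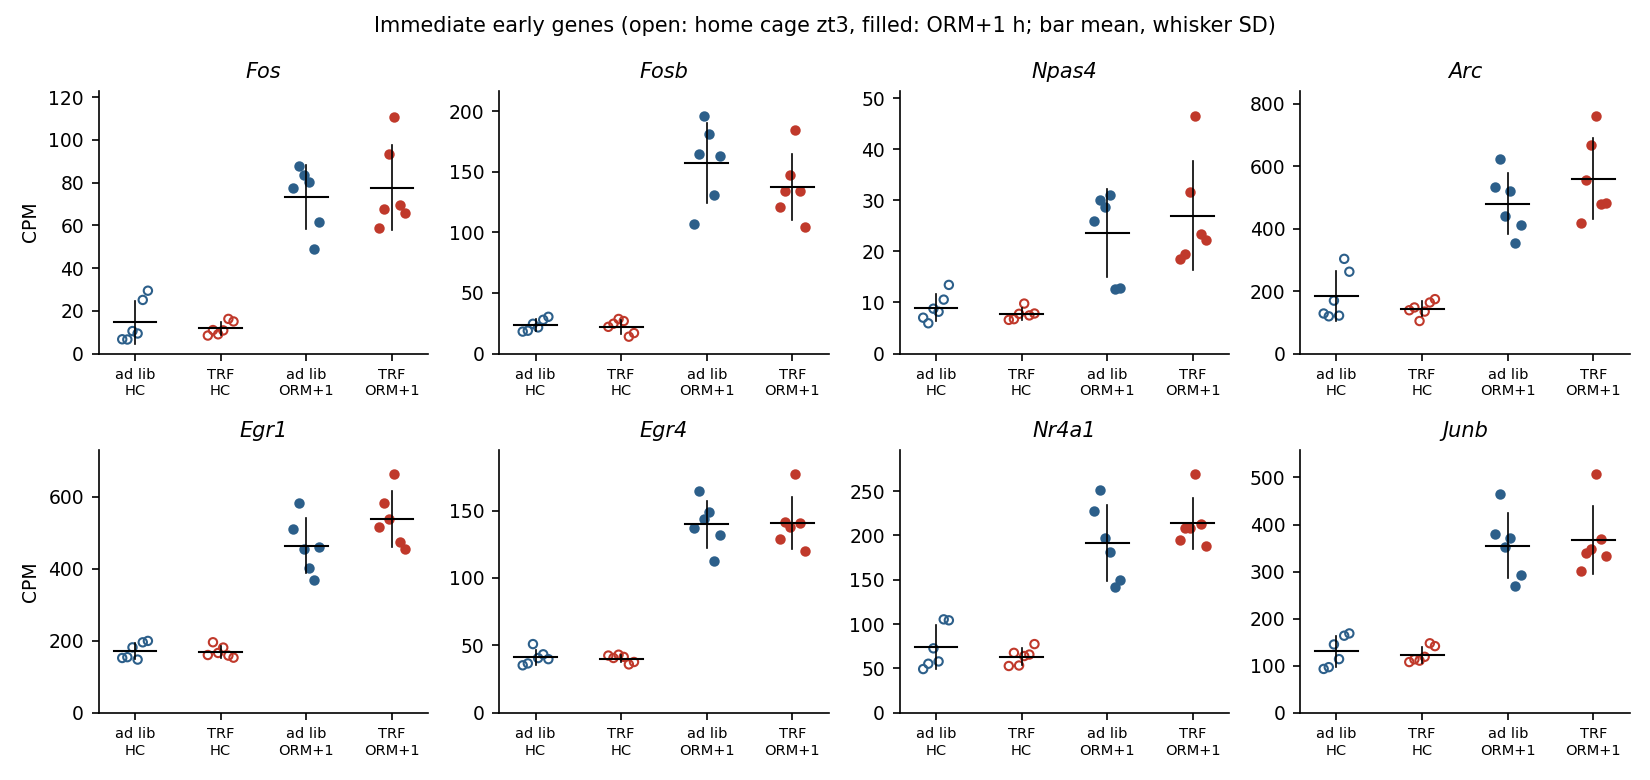
Level (CPM, vertical axis from 0) of 8 immediate early genes, 1 point per mouse, in the home cage at zt3 (open) and at ORM+1 h (filled), blue for HFS ad lib and red for HFS TRF, with mean and SD. Trained mice of both schedules overlap in every panel, as for Egr4 at 112 to 164 CPM in HFS ad lib and 120 to 177 CPM in HFS TRF.

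Most of these genes rose with training in both schedules, so the promoters of 3 of them are shown. The cAMP response element, bound by CREB, is a known input to immediate early genes, and its core is TGACG, or CGTCA on the other strand. In RefSeq promoter windows of GRCm38.p6, from 250 bases before to 50 bases after the start, 31 of the 40 genes had a window, and 21 of the 31 (67.7%) held the core, against 23.0% of all 27025 genes in the table. The full palindrome TGACGTCA, which contains the core, was in 4 of the 31 and 2.03% of all genes. A match is a description of letters, and binding was not measured here. The windows of Fos (chr12:85473640-85473939, plus strand), Egr4 (chr6:85513540-85513839, minus strand) and Nr4a1 (chr15:101266596-101266895, plus strand) are written 5′ to 3′ with each core in capitals:
Fos: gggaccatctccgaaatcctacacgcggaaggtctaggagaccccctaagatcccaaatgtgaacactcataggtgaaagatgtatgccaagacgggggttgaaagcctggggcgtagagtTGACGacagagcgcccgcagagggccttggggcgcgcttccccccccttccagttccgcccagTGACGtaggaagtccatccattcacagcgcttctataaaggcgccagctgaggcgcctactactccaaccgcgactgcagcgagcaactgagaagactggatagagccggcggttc
Egr4: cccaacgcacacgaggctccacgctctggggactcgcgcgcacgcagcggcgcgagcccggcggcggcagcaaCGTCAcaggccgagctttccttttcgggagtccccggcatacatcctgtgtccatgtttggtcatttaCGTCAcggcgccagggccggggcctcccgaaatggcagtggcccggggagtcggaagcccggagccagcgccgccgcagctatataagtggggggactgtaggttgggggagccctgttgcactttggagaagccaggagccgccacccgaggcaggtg
Nr4a1: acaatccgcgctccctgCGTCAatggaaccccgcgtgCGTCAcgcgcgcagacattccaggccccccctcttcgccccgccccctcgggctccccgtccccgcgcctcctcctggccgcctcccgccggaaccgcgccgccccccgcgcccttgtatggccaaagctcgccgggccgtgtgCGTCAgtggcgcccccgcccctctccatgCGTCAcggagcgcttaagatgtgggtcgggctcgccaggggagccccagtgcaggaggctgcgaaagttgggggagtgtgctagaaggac
They held 2, 2 and 4 cores.

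Genes by which astrocytes clear glutamate and buffer potassium were higher on average in HFS TRF, and none passed the test. Of 21 genes, 0 were called and 0 had an unadjusted p under 0.05 (6.54% of all genes did), although all 21 differences were above 0, with a median of 0.21 on the log2 scale. Members of such a list share their source in 1 cell type and are not 21 separate observations. The glutamate transporter Slc1a2 (GLT-1) stood at 858 to 1546 CPM (median 1298) in HFS TRF and 773 to 1729 CPM (median 1063) in HFS ad lib, and HFS ad lib held both the lowest and the highest mouse. Its difference was 0.18 (SE 0.21, 95% interval -0.24 to 0.59).

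The second astrocytic glutamate transporter, Slc1a3 (GLAST), was at 230 to 481 CPM (median 416) against 191 to 587 CPM (median 318), a difference of 0.22 (SE 0.30). Glutamine synthetase, Glul, was at 936 to 1570 CPM (median 1345) against 855 to 1484 CPM (median 1012), a difference of 0.20 (SE 0.22). The ranges of both genes overlapped over most of their length. The mitochondrial glutamate carrier Slc25a18 (0.28, SE 0.29), the cystine-glutamate exchanger Slc7a11 (0.18, SE 0.25) and the glutamate receptors Grin2c (0.38, SE 0.27) and Grm3 (0.24, SE 0.25) had differences of the same size and likewise did not pass. The 2 members with the smallest p were the sodium pump subunit Atp1b2 (0.28, SE 0.17, adjusted p = 0.822) and glutamate dehydrogenase Glud1 (0.16, SE 0.11, adjusted p = 0.888).

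Here the training response and the level reached gave different counts. After training, 18 of these 21 genes were called higher in HFS TRF (2.24% of all genes) and 1 of 21 in HFS ad lib (0.74%). The median training differences were 1.04 and 0.66. The rise was not particular to this list. Of 10 general astrocyte markers, 8 were called higher in HFS TRF (median 1.03) and 1 in HFS ad lib (median 0.54). The difference between the responses was tested by the interaction, in which 0 of 21 genes passed at an adjusted or an unadjusted p under 0.05, with a median of 0.46. That interaction joins a higher median level at ORM+1 h (0.21) with a lower one in the home cage (-0.19), where replicates 5 and 6 of either schedule lay above the other 4. The home cage mean log2 CPM of the list was 4.99 to 6.44 (median 5.07) in HFS ad lib and 4.88 to 6.05 (median 5.26) in HFS TRF. For Slc1a2 the interaction was 0.51 (adjusted p = 0.96).

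The wider set of 123 astrocytic genes listed by the study, a list drawn with these mice in view and so no independent evidence of direction, was also without a call. Of these genes 0 were called and 0 had an unadjusted p under 0.05, with 114 differences above 0 and a median of 0.21. In the training contrasts 97 were called higher in HFS TRF (2.24% of all genes) and 4 in HFS ad lib (0.74%). The median training differences were 0.87 and 0.51. The study drew the list from genes that followed training in its HFS TRF and NC ad lib mice. These training counts thus follow from that selection and are no result about the genes. The interaction, which shares those mice, called 0 and had 6 above 0 at an unadjusted p under 0.05 (2.87% of all genes). General astrocyte markers had a median of 0.21 over 10, at a summed 2253 to 4108 CPM in HFS TRF and 1980 to 4476 CPM in HFS ad lib. Without HFS ad lib replicate 3, which had the highest choroid plexus and the lowest astrocyte sum, the median of the 21 genes was 0.13, and without HFS ad lib replicate 2 it was 0.37. The part of astrocyte recovery in these differences was not tested.

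Thyroid hormone genes gave no call between the schedules. Of 32 genes, covering transporters, deiodinases, receptors, cofactors and targets, 3 had an unadjusted p under 0.05 (6.54% of all genes), all higher in HFS TRF (3.21%), with a median of -0.01. In the interaction 0 were called. There 5 of 32 were above 0 (2.87% of all genes) and 1 below 0 (2.72%) at an unadjusted p under 0.05, with a median of 0.12. After training 5 were called higher in HFS TRF (2.24% of all genes) and 3 lower. In HFS ad lib 1 was called higher (0.74%) and 0 lower. Dio2, the deiodinase by which astrocytes make active T3, was at 30.7 to 49.8 CPM (median 41.0) in HFS TRF and 33.1 to 52.6 CPM (median 43.4) in HFS ad lib, a difference of -0.07 (SE 0.24). It rose after training in both schedules, by 1.49 and 1.25 on the log2 scale (edgeR adjusted p = 2.5e-05 and 0.00092), to levels that were intermixed.

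Dio3, which inactivates the hormone, was low, at 0.630 to 2.06 CPM (median 1.44) against 1.19 to 2.83 CPM (median 1.95), a difference of -0.46 (SE 0.38, 95% interval -1.22 to 0.30). The receptor genes had differences of -0.10 (SE 0.08) for Thra and -0.05 (SE 0.09) for Thrb. The 2 members with the smallest p were the coactivator Ncoa1 (0.14, SE 0.06, adjusted p = 0.763) and the Mediator subunit Med12 (0.28, SE 0.13, adjusted p = 0.763).

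Among 23 circadian clock genes, 2 had an unadjusted p under 0.05, both higher in HFS TRF (3.21% of all genes), 0 were called, and the median was 0.06. Nr1d1 (REV-ERB alpha), the heme-sensing repressor of Bmal1, was at 116 to 147 CPM (median 127) in HFS TRF and 78.3 to 135 CPM (median 91.1) in HFS ad lib. The difference was 0.34 (SE 0.11, edgeR adjusted p = 0.763), and the NC ad lib trained mice lay at 99.7 to 160 CPM. Its counterpart in the home cage was 0.02. Bhlhe40, a repressor of clock transcription that activity also induces, was at 176 to 223 CPM (median 181) against 138 to 184 CPM (median 165), a difference of 0.22 (SE 0.08).

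The period genes, which training also induces, did not pass. Per1, named with Per2, Bmal1 and Fkbp5 after values were seen, was at 129 to 165 CPM (median 147) against 125 to 157 CPM (median 133), a difference of 0.12 (SE 0.12). After training it rose by 1.12 (HFS TRF) and by 0.94 (HFS ad lib). Per2 had a difference of 0.15 (SE 0.14) and Bmal1, the core activator, an adjusted p of 0.822. Glucocorticoid targets gave 0 calls and 0 unadjusted p under 0.05 among 24 genes, with a median of -0.04. Tsc22d3 (GILZ) was at 55.8 to 85.3 CPM (median 70.8) against 66.1 to 127 CPM (median 75.8), a difference of -0.24 (SE 0.12, adjusted p = 0.771). Fkbp5, the chaperone that dampens the receptor, had a difference of -0.02 (SE 0.09). Plin4 was second on that list (-0.95, SE 0.55), at 0.265 to 2.34 CPM and 0.0351 to 4.04 CPM. Without HFS ad lib replicate 4 Tsc22d3 was at -0.07 and Plin4 at -0.29, and without HFS TRF replicate 3 Plin4 was at -1.80.

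Metabolic and stress lists lay close to 0, again without a call, and each count below stands against 6.54% of all genes at an unadjusted p under 0.05. In insulin, leptin and mTOR signalling, 1 of 46 had an unadjusted p under 0.05 and was lower in HFS TRF, with a median of 0.01. That gene was Igfbp3, an IGF carrier, at 12.6 to 20.1 CPM (median 16.3) in HFS TRF and 17.8 to 22.4 CPM (median 20.4) in HFS ad lib (-0.31, SE 0.11). Fatty acid oxidation and ketone use had 0 of 31, a median of 0.03, and as its first 2 members Ppargc1a (-0.15, SE 0.08) and Acot2 (-0.15, SE 0.09).

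Cholesterol and fatty acid synthesis had 3 of 35 higher (3.21% of all genes were) and 0 lower, with 30 differences above 0 and a median of 0.08. The 3 were Acss2 and Acly, which supply acetyl-CoA, and the synthase Fasn (0.23). Acss2 was at 56.5 to 62.9 CPM (median 59.3) against 42.1 to 61.1 CPM (median 51.2), a difference of 0.21 (SE 0.09). Acly was at 184 to 203 CPM (median 189) against 155 to 191 CPM (median 166), a difference of 0.18 (SE 0.08). The unfolded protein and integrated stress response had 1 of 31, the chaperone Dnajb9 (-0.26, SE 0.12), followed by Shmt2 (0.14, SE 0.09). Heat shock genes had 2 of 26, the mitochondrial co-chaperone Hspe1 (-0.22, SE 0.09) and the co-chaperone Fkbp4 (0.17, SE 0.08).

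Synaptic genes were measured tightly and lay close to 0. All 29 postsynaptic plasticity proteins had a 95% interval within 1.5-fold, with a median of 0.02, and the first members were the scaffold Dlg3 (0.16, SE 0.07) and the kinase Camk2g (0.14, SE 0.07). Of 34 glutamate and GABA receptors 31 lay within 1.5-fold, with a median of 0.02, led by Grm2 (0.24, SE 0.12) and Gria4 (-0.18, SE 0.10). Notch pathway genes had a median of 0.10 over 25, with Maml3 (0.23, SE 0.12) and Notch1 (0.29, SE 0.19) first. Neuropeptides had a median of 0.12 over 26, and 6 of these lay within 1.5-fold.

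Inhibitory neuron markers had mostly negative differences, as did Lhx6. Of 10 markers, 1 had an unadjusted p under 0.05 (6.54% of all genes), 9 differences were below 0 and the median was -0.12. Pvalb, the calcium buffer of fast-spiking interneurons, was at 110 to 131 CPM (median 123) in HFS TRF and 133 to 182 CPM (median 142) in HFS ad lib. All 6 HFS TRF mice lay below all 6 HFS ad lib mice, as for 0.139% of all genes, and the difference was -0.28 (SE 0.08, edgeR adjusted p = 0.763). Sst, somatostatin, was at 97.1 to 126 CPM (median 115) against 99.2 to 158 CPM (median 139), a difference of -0.27 (SE 0.14), with its groups overlapping. In the home cage Pvalb and Sst differed by 0.04 and 0.17, and NC ad lib mice at ORM+1 h had a mean log2 CPM of the list of 5.35 to 5.86, beside 5.51 to 5.80 in HFS TRF and 5.64 to 5.92 in HFS ad lib.

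Granule cells of the dentate gyrus, the input field of the hippocampus, had mostly positive differences. Of 8 markers, 2 were higher at an unadjusted p under 0.05 (3.21% of all genes), 7 differences were above 0 and the median was 0.22. Dsp, desmoplakin, was at 23.0 to 28.5 CPM (median 25.9) in HFS TRF and 15 to 22.8 CPM (median 19.6) in HFS ad lib, with no overlap (0.136% of all genes), a difference of 0.41 (SE 0.14, adjusted p = 0.763). Lct was at 64.4 to 93.3 CPM (median 82.8) against 52.4 to 83.9 CPM (median 64.8), a difference of 0.30 (SE 0.13). Markers of CA1 had a median of 0.03 over 6, and those of CA3 and CA2 one of 0.01 over 8. Leaving out 1 mouse at a time kept the dentate median between 0.18 and 0.28. Whether the share of dentate gyrus in the dissection took part in this was not tested.

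**Figure D4:**
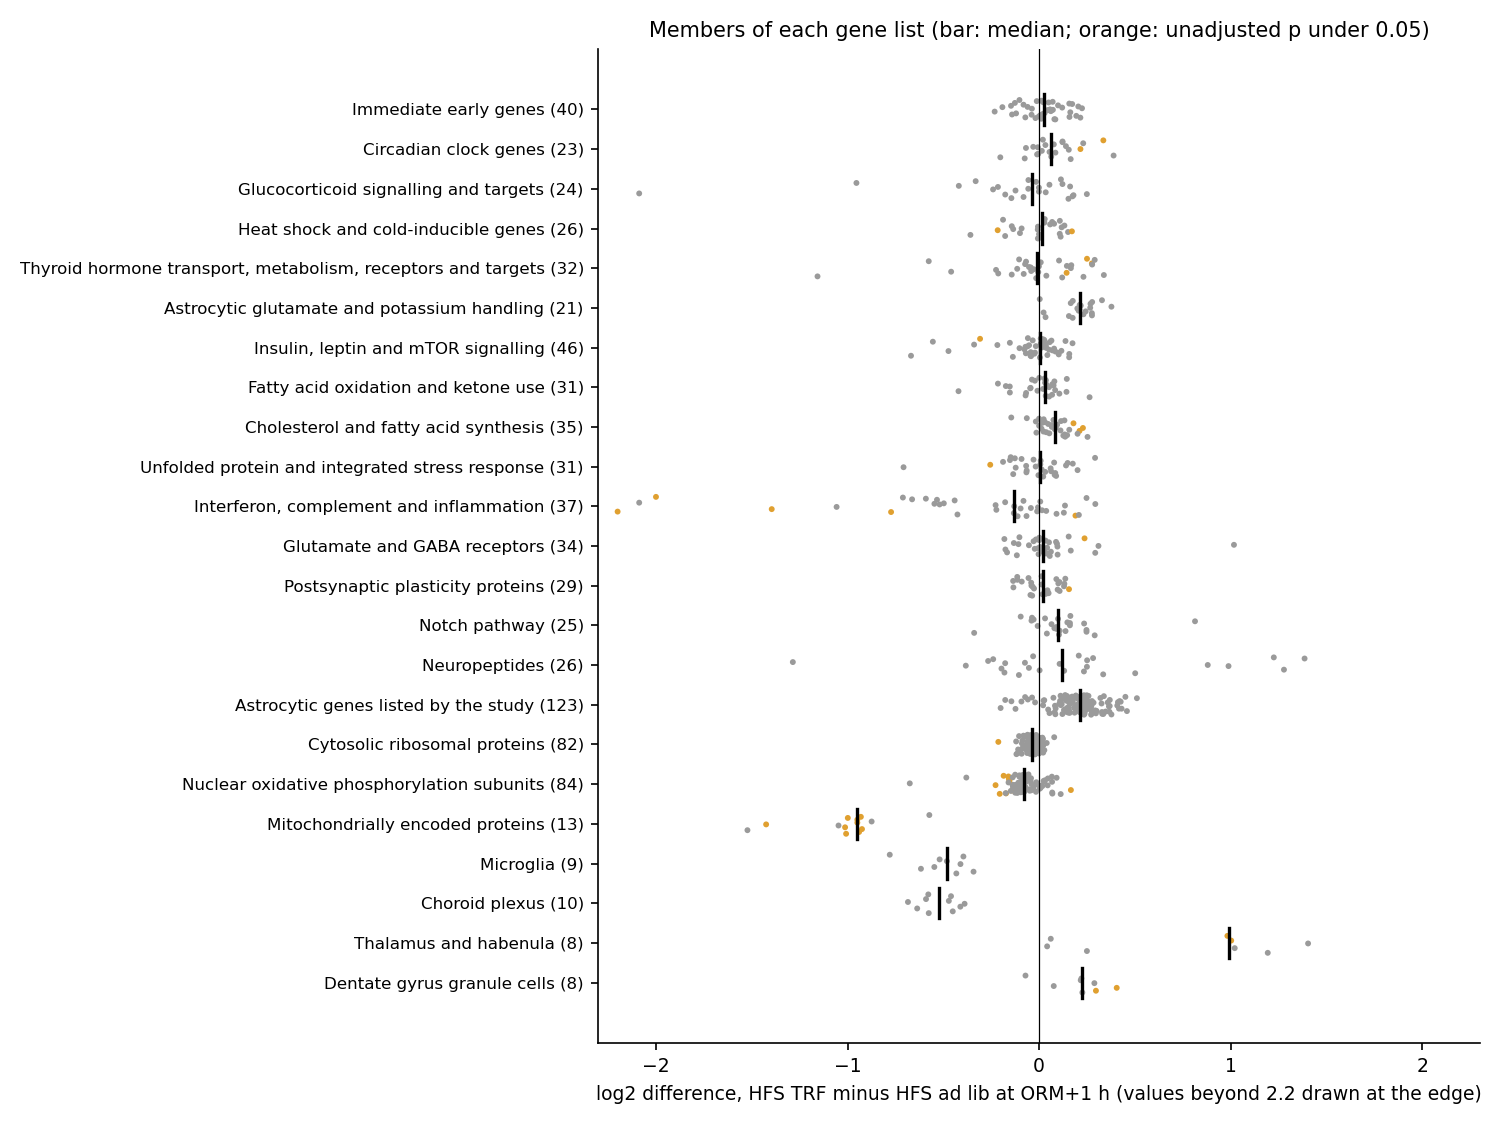
Log2 difference of each list member at ORM+1 h, HFS TRF over HFS ad lib (horizontal axis), 1 point per gene and 1 row per list with the number tested in brackets, black bars for medians and orange for an unadjusted p under 0.05. Medians lay near 0 for most lists, at 0.21 for astrocytic glutamate genes and at -0.95 for mitochondrially encoded proteins, and no gene passed the adjusted test.

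The list farthest below 0 held the 13 proteins encoded by mitochondrial DNA, core subunits of respiratory complexes that are translated by mitochondrial ribosomes. The pull-down was of cytosolic ribosomes carrying phosphorylated S6, so the levels of these transcripts do not measure their translation. How they entered the libraries was not tested. All 13 differences were below 0, from -1.52 to -0.57 with a median of -0.95. Of the 13, 9 had an unadjusted p under 0.05 (3.33% of all genes were lower at that level), and 0 were called. These transcripts share precursor RNAs and are not separate observations. mt-Co1, a catalytic subunit of cytochrome oxidase, was at 72.2 to 135 CPM (median 95.4) in HFS TRF and 118 to 327 CPM (median 154) in HFS ad lib, a difference of -0.92 (SE 0.29, edgeR adjusted p = 0.763). mt-Nd5, of complex I, was at 28.5 to 56.4 CPM (median 39.2) against 43.3 to 153 CPM (median 62.4), a difference of -1.0 (SE 0.33).

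The groups overlapped at their edges, and the height of HFS ad lib rested partly on single mice. The 13 genes summed to 253 to 551 CPM (median 374) in HFS TRF and 445 to 1390 CPM (median 564) in HFS ad lib, highest in HFS ad lib replicates 3 and 4 at 1390 and 999 CPM. Without HFS ad lib replicate 3 the median difference was -0.69, and without HFS TRF replicate 4 it was -1.13. In NC ad lib mice at ORM+1 h the mean log2 CPM was 1.12 to 2.28 (median 1.48), beside 0.95 to 2.46 (median 1.57) in HFS TRF and 1.83 to 3.6 (median 2.44) in HFS ad lib.

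Subunits of the same complexes encoded in the nucleus had smaller differences of the same sign. Of 84 genes, 10 had an unadjusted p under 0.05 (6.54% of all genes), 9 of them lower in HFS TRF (3.33%), 67 differences were below 0, and the median was -0.08. Cox6c was at 255 to 316 CPM (median 299) in HFS TRF and 286 to 399 CPM (median 357) in HFS ad lib, a difference of -0.23 (SE 0.08, adjusted p = 0.763). Cox7b was at 267 to 334 CPM (median 279) against 280 to 359 CPM (median 329), a difference of -0.19 (SE 0.07). Cytosolic ribosomal proteins had 1 of 82 at that level, Rpl39 (-0.21, SE 0.09), with Rpl22 next (-0.12, SE 0.06), and a median of -0.03.

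For both of these lists the home cage pointed the opposite way. At HC zt3 the nuclear subunits had a median of 0.11, with 17 of 84 higher in HFS TRF at an unadjusted p under 0.05 (2.51% of all genes), and the ribosomal proteins a median of 0.13 with 25 of 82. In the interaction, 30 of 84 nuclear subunits and 12 of 82 ribosomal proteins were below 0 at that level (2.72% of all genes), and 0 were called. Members of either list were measured in the same mice, so these counts are not separate observations. The mean log2 CPM of the nuclear subunits was 6.86 to 7.04 (median 6.90) in HFS TRF and 6.91 to 7.10 (median 6.99) in HFS ad lib at ORM+1 h, and 6.90 to 7.10 (median 6.97) and 6.74 to 6.98 (median 6.87) in the home cage.

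Microglial markers, of the resident immune cells of the brain, were also lower on average. All 9 differences were below 0, from -0.78 to -0.34 with a median of -0.48, and 0 of 9 had an unadjusted p under 0.05. They summed to 57.3 to 71.5 CPM (median 59.9) in HFS TRF and 62.2 to 107 CPM (median 80.3) in HFS ad lib, where replicates 3, 4, 5 and 6 lay above every HFS TRF mouse, replicate 3 only just, and the other 2 lay among them. Tmem119 had a difference of -0.62 (SE 0.31, adjusted p = 0.774) and C1qa one of -0.52 (SE 0.27, adjusted p = 0.777). The mean log2 CPM was 1.98 to 2.32 in NC ad lib mice at ORM+1 h. Leaving out HFS ad lib replicate 4 gave a median of -0.34.

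On the list of interferon, complement and inflammation genes, 5 of 37 had an unadjusted p under 0.05 (6.54% of all genes), 4 of them lower in HFS TRF (3.33%), with a median of -0.13. The lower ones were Rsad2, Il6, C1qb (-0.77) and Usp18, and the higher one Stat3 (0.19), of which C1qb, Usp18 and Stat3 are named after their values were seen. Il6 had 0 counts in all 6 HFS TRF mice and 0 to 8 counts in HFS ad lib, where 3 mice were at 0. C1q genes are expressed by microglia, whose markers moved with them, and the part of microglial RNA in these values was not tested.

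Markers of neighbouring tissue rested in part on single mice. Thalamic and habenular markers had 2 of 8 higher at an unadjusted p under 0.05 (3.21% of all genes) and a median of 0.99, with Prkcd at 36.9 to 217 CPM (median 60.0) in HFS TRF and 28.0 to 80.1 CPM (median 37.8) in HFS ad lib, and Rgs16 at 7.21 to 69.4 CPM against 7.76 to 24.2 CPM. Without HFS TRF replicate 3 the median was 0.31, and the differences of Prkcd and Rgs16 went from 1.0 and 0.98 to 0.49 and 0.25. Markers of striatum and septum had a median of 0.12, led by Rgs9 (0.36, SE 0.12) and Zic1 (0.81, SE 0.59). Without HFS TRF replicate 3 Rgs9 was at 0.47 and Zic1 at 0.13, and Zic1 was at 1.19 without HFS ad lib replicate 4. Choroid plexus markers had a median of -0.52 over 10, with Kl at 26.4 to 262 CPM in HFS TRF and 29.3 to 401 CPM in HFS ad lib, of 0.29 without HFS ad lib replicate 3 and of -1.30 without HFS TRF replicate 3, so the sign rested on 1 mouse.

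Markers of blood and vessels gave no call. Red blood cell genes had a median of -0.38 over 5, led by Hbb-bs (-0.44, SE 0.22) and Hba-a1 (-0.38, SE 0.23), and of -0.13 without HFS ad lib replicate 2. In the home cage at zt3 their median was -0.59. All 5 were lower there at an unadjusted p under 0.05 (5.89% of all genes in either direction). Their medians were 0.52 at HC zt15 and -0.11 at ORM+12 h. Endothelial markers had a median of -0.24 over 9 at a sum of 6.46 to 8.83 CPM and 8.01 to 10.8 CPM, with Pecam1 at 12 to 54 counts and Cldn5 at 16 to 66 counts per mouse. Rgs5 of pericytes had a difference of -0.39 (SE 0.16), and that list a median of 0.02 over 8. Myelin genes had a median of -0.03 over 10, oligodendrocyte precursors one of 0.09 over 7, ependymal markers one of -0.22 over 6 and meningeal fibroblasts one of 0.06 over 8. The ependymal median was 0.15 without HFS ad lib replicate 3 and -0.53 without HFS TRF replicate 3.

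**Figure D5:**
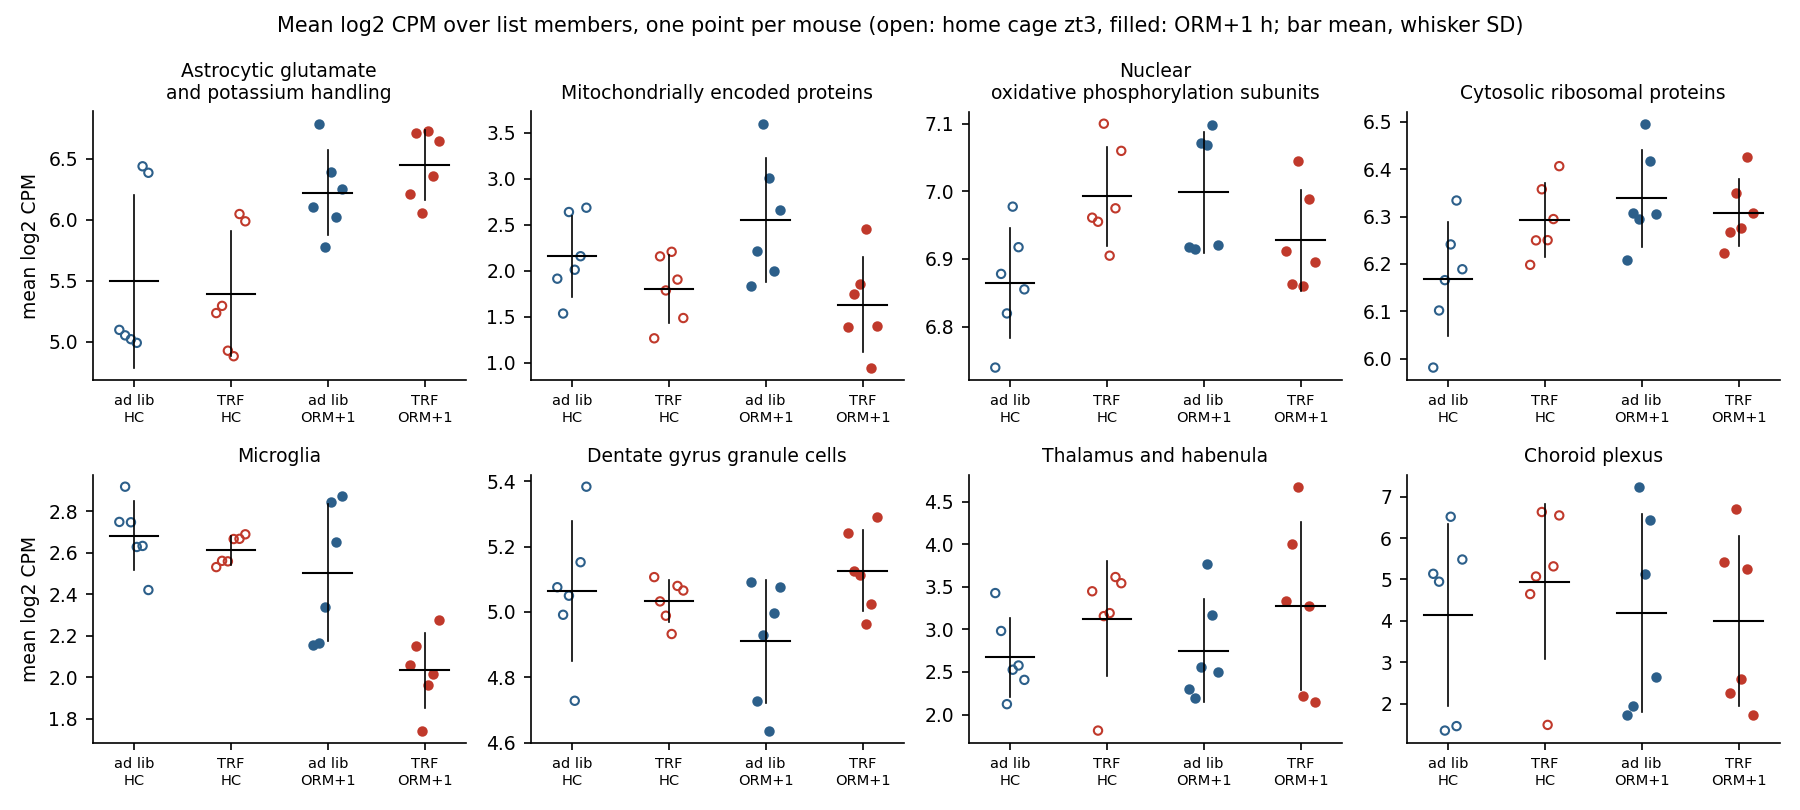
Mean log2 CPM over the members of 8 lists (vertical axis, not from 0), 1 point per mouse, in the home cage at zt3 (open) and at ORM+1 h (filled), blue for HFS ad lib and red for HFS TRF, with mean and SD. Trained groups overlap in every panel, HFS TRF lay lower for mitochondrially encoded proteins (median 1.57 against 2.44) and microglia, and choroid plexus markers spread over several log2 units within each group.

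The third principal component, 8.97% of the variance, joined genes of several of these lists. Its low side was led by C1qb, C1qa and mitochondrial transcripts such as mt-Nd2, and its high side held Dsp, Slc38a3 and Mcm6. Scores were 1.33 to 7.85 in HFS TRF and -14.6 to 2.78 in HFS ad lib, lowest in HFS ad lib replicate 4. These are loadings over the 12 mice, and the spread along the component was widest within HFS ad lib.

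The same feeding contrast in other mice gave a check on direction that shares no sample with ORM+1 h. At HC zt3, 0 genes were called by edgeR and 1774 (5.89%) had an unadjusted p under 0.05, while DESeq2 called 1, the immunoglobulin gene Iglc1, named after its value was seen. HC zt15 and ORM+12 h belong to another experiment of the study, so hour and experiment cannot be told apart. At HC zt15, with 5 HFS TRF and 6 HFS ad lib mice, 0 were called, with a smallest adjusted p of 0.107. There 4694 genes (15.6%) had an unadjusted p under 0.05. At ORM+12 h, 2 were called (0.00664%), the processed pseudogenes Gm10327 and Gm11814, both lower in HFS TRF. At ORM+1 h these 2 differed by 0.08 and 0.15 (adjusted p = 1 for both).

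The genes with the smallest p at ORM+1 h had these values elsewhere. Rasa3 differed by -0.02 at HC zt3, -0.11 at HC zt15 and -0.16 at ORM+12 h, and Tiam1 by -0.02, -0.11 and 0.01. Lhx6 differed by -0.13, -0.17 and 0.06, and Nabp1 by -0.28, -0.02 and -0.15. The sign of the ORM+1 h difference was thus not shared by the other conditions for Rasa3, and it was shared in all 3 for Nabp1.

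For the lists, the medians at HC zt3, HC zt15 and ORM+12 h stood as follows. Astrocytic glutamate genes were at -0.19, 0.20 and 0.21, and immediate early genes at -0.11, -0.00017 and -0.19. Mitochondrially encoded proteins were at -0.42, 0.52 and 0.58, against -0.95 at ORM+1 h. The sign at ORM+1 h was thus that of HC zt3 and the reverse of both samplings at zt15, which came from the other experiment. Microglial markers were at -0.08, -0.98 and 0.17, with all 9 lower at an unadjusted p under 0.05 at HC zt15 (7.32% of all genes), and dentate gyrus markers at -0.10, -0.01 and -0.07.

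The interaction tested directly whether the feeding difference at ORM+1 h departed from that at HC zt3, and it shares the 12 trained mice. It called 0 genes, with a smallest adjusted p of 0.750, and 1685 genes (5.59%) had an unadjusted p under 0.05. Among immediate early genes 1 of 40 had such a p, and among clock genes 0 of 23. Arc had an interaction of 0.58 (adjusted p = 0.87), with training differences of 1.96 (HFS TRF) and 1.38 (HFS ad lib), both called. Pvalb had one of -0.32 (adjusted p = 0.75) and Dsp one of 0.51 (adjusted p = 0.75).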

How the data were processed

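Hippocampal mRNA bound to phosphorylated S6 ribosomes (pS6-TRAP) was sequenced from 71 mice. The authors trimmed reads with Trim Galore 0.6.7 and cutadapt 3.4, aligned them with HISAT2 2.2.0 to GRCm39, assigned unique alignments to genes by featureCounts (Subread 2.0.3) and deposited the raw counts. The labels' processing notes also list mm9, with no role given. In the deposited counts 67.0% of values above 0 were even, so many fragments were counted by both mates, and intervals cover the spread between mice, not molecules.

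Gene IDs were named from GENCODE (56310 of 57010 matched). Genes with at least 10 counts over all mice (30141) were fitted with edgeR 4.0.16 in R 4.3.3 (TMM scaling, quasi-likelihood test, 12 groups, no block), with contrasts for each comparison and Benjamini-Hochberg adjustment over all 30141 genes at 0.05. Log2 CPM per mouse used a prior count of 2. p-values measure the spread between mice, and cages are not labelled. Members of any list come from the same mice and are not replicates of a schedule. DESeq2 1.42.0 was an alternative, and the fit was tested on simulated data. The 12 libraries were distinct, since chi-square per degree of freedom between any pair of a group was at least 14.9.

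Named genes were, by rule, the 5 protein-coding genes of smallest p in each direction, as none was called, the 2 of smallest p in each list, and 12 genes the study is about (8 astrocytic and 4 thyroid). A few of these are not reported here. Others are marked in the text as chosen later. The members and lists were chosen with earlier results of these data known. Promoter windows came from RefSeq (GRCm38.p6), and other coordinates from GRCm39. Alternatives covered scaling, the count filter, the tool, the samples fitted, the replicate block and leaving out each mouse. Choroid plexus alternatives were added after seeing the data.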

Additional observations from a re-analysis of the deposited data

Results flagged for a closer look

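Within each trained group, a named gene is listed here where 1 mouse lay far from the other 5 (the gap to the nearest mouse, over the group's range, above Dixon's 95% critical value). Of 184 groups of 6 looked at, 16 were listed, and chance lists about 1 in 20.

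In HFS TRF replicate 3, 6 genes stood apart. Markers of neighbouring tissue were high there, with Prkcd at 217 CPM (others 36.9 to 100.4), Rgs16 at 69.4 CPM (others 7.21 to 25.4) and Zic1 at 86.6 CPM (others 5.30 to 31.2). Cox7b was at 334 CPM (others 267 to 282) and Plin4 at 2.34 CPM (others 0.265 to 0.580), while Arhgef2 was low at 106 CPM (others 115 to 118).

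In HFS ad lib replicate 4, 5 genes were high. Prkcd was at 80.1 CPM (others 28.0 to 47.0) and Rgs16 at 24.2 CPM (others 7.76 to 13.4). Pvalb was at 182 CPM (others 133 to 145), Tsc22d3 at 127 CPM (others 66.1 to 80.4) and Rsad2 at 1.05 CPM (others 0.235 to 0.511).

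The remaining 5 came from other mice. Nabp1 was low in HFS TRF replicate 6 at 13.5 CPM (others 15.4 to 16.3), where Gpr17 was high at 59.1 CPM (others 45.8 to 50.3). Rpl22 was at 108 CPM in HFS TRF replicate 5 (others 94.1 to 97.4), Sox9 at 55.9 CPM in HFS TRF replicate 4 (others 33.4 to 39.8), and Notch1 at 14.2 CPM in HFS ad lib replicate 2 (others 5.72 to 8.65).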

How the results depend on the processing

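The count of 0 genes called at ORM+1 h was 0 under every alternative but 1, and 0 to 0 when each mouse was left out in turn, with 1607 to 2233 genes at an unadjusted p under 0.05. The exception was the fit of the 12 trained mice alone with the replicate number as a block, which called 22 genes. Among them were mt-Co1, Nhsl2, Tiam1, Dsp, Aqp4 and Atp1b2, named by rule, and mt-Nd4 and C1qb, named after their values were seen. The 22 held 7 of the 13 mitochondrially encoded proteins. They also held the mitochondrial rRNAs mt-Rnr2 (-0.77 in that fit) and mt-Rnr1 (-0.74), named after their values were seen. The replicate numbers do not pair the mice by the labels. Same-numbered mice correlated at -0.24 to 0.69 in their deviations, over 0.1 for 4 of 6 pairs, and 1 of 6 mice correlated best with its own number. With the block within condition over all mice, 0 genes were called. The cause of this disagreement was not tested.

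At HC zt3 DESeq2 called 1 gene, Iglc1, and edgeR 0. Of 2022 values of 92 named genes under alternatives, 2010 kept their sign and their side of the threshold, 7 passed it (all in the block of the 12 mice) and 5 reversed. Kl was 0.23 without HFS ad lib replicate 3, with a range of -1.06 to 0.23 over single mice left out. Otx2 was 0.32 without that mouse (range -1.09 to 0.32) and 0.036 with a choroid plexus score as covariate, added after seeing the data. Thrb was 0.0013 without HFS ad lib replicate 6 (range -0.085 to 0.0013) and 0.0077 without the mouse of each schedule highest in choroid plexus markers, also added later. Of 36 list medians, 16 changed sign when 1 mouse was left out, among them ependymal and choroid plexus markers. Depth limits Rsad2, Angpt4, Klhl14 and Il6, which rest on few counts per mouse.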
